A study of Mus musculus with 12 samples.

Results

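The glutathione peroxidase genes of the mouse, Gpx1 to Gpx8, were followed across ribosome-bound and whole-tissue RNA of the hypothalamus and the midbrain. The family was chosen by the levels of Gpx3 in these libraries, which were higher in both ribosome-bound fractions than in whole tissue and higher in the hypothalamus than in the midbrain, and the other 7 genes were added by name. All 8 genes had a row among the 32531 gene rows, and 6 of them were among the 18128 genes with enough counts to be tested. Gpx2 and Gpx5 did not reach that level. Since Gpx3 was chosen for the values given here, its levels and fold changes are a description and carry no test.

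The RNA came from adult mice of the Slc17a6-TRAP line JX883, which carry a transgene for the ribosomal protein Rpl10a joined to EGFP under the control of Slc17a6. Slc17a6 encodes VGLUT2, the glutamate transporter of synaptic vesicles in most subcortical excitatory neurons, so the tag marks the ribosomes of cells in which the transgene is active. The 4 groups, each of 3 libraries, were hypothalamus IP, hypothalamus input, midbrain IP and midbrain input. IP is RNA bound to ribosomes pulled down with antibodies against EGFP, input is RNA of the whole dissected tissue, and the mice of all 4 groups carried the transgene. An IP from untagged mice is not among the labelled samples, and the labels gave no treatment and did not say which libraries came from separate animals. Index and fraction cannot be told apart, because every IP had the same index and every input a second one. The regions of 1 replicate number ran on different lanes, so region and lane cannot be told apart within a number.

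Glutathione peroxidases reduce hydrogen peroxide or lipid hydroperoxides to water or alcohols, with glutathione as the usual electron donor. In the mouse, Gpx1, Gpx2, Gpx3 and Gpx4 carry selenocysteine in the active site, encoded by a TGA codon that elsewhere ends translation, while Gpx5 to Gpx8 carry cysteine there. Gpx1 is the abundant enzyme of the cytosol and mitochondria, Gpx2 is known from the gut lining, Gpx3 is the secreted enzyme of blood plasma, and Gpx4 is the phospholipid hydroperoxidase that guards membranes against ferroptosis. Gpx5 and Gpx6 are known from the epididymis and the olfactory epithelium, and Gpx7 and Gpx8 act in the endoplasmic reticulum.

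The catalytic codon sets the family apart into its selenocysteine and cysteine members, and the surrounding coding sequence shows how close each gene is to Gpx3. Each line below gives 30 coding bases on either side of that codon, 5′ to 3′, with the catalytic codon in capitals. The TGA codons are those that GENCODE release M21 annotates as selenocysteine, and the codons of the other 4 genes were found by alignment of the coded proteins to that of Gpx3.
Gpx1: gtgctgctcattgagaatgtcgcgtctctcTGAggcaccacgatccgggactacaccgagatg
Gpx2: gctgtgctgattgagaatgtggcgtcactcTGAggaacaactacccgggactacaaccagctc
Gpx3: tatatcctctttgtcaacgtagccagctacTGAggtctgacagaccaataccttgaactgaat
Gpx4: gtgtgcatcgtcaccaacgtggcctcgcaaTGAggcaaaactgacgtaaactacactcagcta
Gpx5: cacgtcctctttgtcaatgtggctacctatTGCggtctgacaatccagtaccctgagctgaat
Gpx6: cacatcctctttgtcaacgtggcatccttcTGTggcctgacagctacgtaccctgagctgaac
Gpx7: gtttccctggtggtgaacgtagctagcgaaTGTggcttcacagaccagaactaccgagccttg
Gpx8: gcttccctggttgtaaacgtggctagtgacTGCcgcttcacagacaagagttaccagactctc
The proteins coded by Gpx6 and Gpx5 were the closest to that of Gpx3, with 67.0% and 65.6% identical residues over the aligned length. Gpx1 followed with 52.4% and Gpx2 with 43.2%, then Gpx7 with 36.1%, Gpx4 with 34.6% and Gpx8 with 31.7%. Gpx7 and Gpx8 shared 48.4% with each other, and Gpx1 and Gpx2 shared 63.2%. The capitals thus separate the genes differently from the overall likeness to Gpx3, since Gpx5 and Gpx6 are its nearest relatives and have cysteine codons.

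In the mm10 build, Gpx3 lies on the plus strand at chr11:54902453-54910377, and its TGA codon, number 73 of the coding sequence, is exonic at chr11:54907256-54907258. Gpx1 lies on the plus strand at chr9:108338903-108340343, with its TGA codon at chr9:108339451-108339453. Gpx4 lies on the plus strand at chr10:80047166-80056439, and Gpx8 on the minus strand at chr13:113042753-113046410, within the span of Cdc20b. No exon of the 8 genes overlapped an exon of another gene. Of the 50-base stretches of the Gpx4 transcript, 61.7% also occurred in the transcripts of Gpx4-ps2 or AC122253.3. Reads from those stretches have more than 1 alignment, and the level of Gpx4 is therefore uncertain, as is that of Gpx2, which shared 18.9% with Gpx2-ps1.

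Libraries held from 41909019 to 55148109 counts over genes, and levels are given as CPM, counts scaled to the size of the library with TMM factors. The floor of 3 counts in a library equalled 0.0537 to 0.071 CPM. Slc17a6, the targeted gene, was higher in IP than in input, with 3490, 1120 and 1740 CPM in the hypothalamus IP against 518, 218 and 311 in its input, and 3950, 1860 and 2390 CPM in the midbrain IP against 1240, 501 and 589. Its log2 fold changes were 2.60 (SE 0.49) and 1.82 (SE 0.48), with adjusted p of 0.00184 and 0.0116 by edgeR's quasi-likelihood test, which lost the midbrain call without replicate 3 of all groups (adjusted p = 0.11). Rpl10a, which encodes the tagged protein, lay the other way. It averaged 5.18 CPM in the hypothalamus IP against 8.21 in its input, and 5.53 against 6.52 CPM in the midbrain. The log2 fold changes of Rpl10a, -0.66 (SE 0.26) and -0.24 (SE 0.26), did not pass in that test (adjusted p = 0.0676 and 0.521). Replicate 1 was the highest for Slc17a6 in every group, and the ribosomal RNA row Rn45s took 12.34% and 12.47% of the counts in replicate 1 of the hypothalamus and midbrain IP, the highest of the 12 libraries. Markers of other cells were lower in the IPs, where 14 of 14 astrocyte and 14 of 14 oligodendrocyte genes were called lower in both regions, against 19.6% of all tested genes in the hypothalamus and 19.9% in the midbrain, with summed astrocyte levels of 489 to 640 CPM in the hypothalamus IP and 2350 to 3650 CPM in its input. Summed GABAergic markers were between 155 and 349 CPM in the hypothalamus IP and between 1730 and 2130 CPM in its input. In these bulk samples, fewer cells of a type and less RNA per cell cannot be told apart.

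Gpx3, the secreted member, had 868, 353 and 268 CPM in replicates 1, 2 and 3 of the hypothalamus IP and 184, 137 and 104 CPM in the hypothalamus input. In the midbrain it had 116, 70.9 and 90.4 CPM in the IP and 25.0, 26.0 and 21.6 CPM in the input. Every IP library was above every input library of its region, and every hypothalamic library was above every midbrain library of its fraction, the pattern for which Gpx3 was chosen. Among all tested genes, 46.9% had non-overlapping IP and input libraries in the hypothalamus and 48.9% in the midbrain. Between the regions, 18.5% had non-overlapping IP libraries and 22.1% non-overlapping input libraries. The order of the groups was hypothalamus IP, hypothalamus input, midbrain IP and midbrain input. The middle groups overlapped, since the highest midbrain IP library, at 116 CPM, lay above the lowest hypothalamus input library, at 104 CPM.

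The fitted log2 fold change of Gpx3 was 1.81 (SE 0.38), or 3.5-fold, for IP against input in the hypothalamus, and 1.93 (SE 0.38), or 3.82-fold, in the midbrain. The IP against input change of the hypothalamus minus that of the midbrain was -0.13 (SE 0.52), with a 95% interval from -1.25 to 1.00. Between regions, Gpx3 was higher in the hypothalamus by 2.42 (SE 0.38) on the log2 scale in the IPs and by 2.55 (SE 0.39) in the inputs, 5.37-fold and 5.85-fold. The regional gaps of 2.42 in ribosome-bound RNA and 2.55 in whole tissue were close with all libraries, but the wide interval does not show them equal. Without replicate 1 of the hypothalamus IP, the gap between the IPs was 1.75. These comparisons share libraries and are not independent of each other.

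Replicate 1 of the hypothalamus IP stood well above its 2 companions, at 868 against 353 and 268 CPM, and it was also the library with the highest Slc17a6 in that group. Without it, the log2 fold change of Gpx3 in the hypothalamus was 1.13 (SE 0.25). The hypothalamus minus midbrain difference in IP over input was then -0.80 (SE 0.34). The IP level of Gpx3 was higher in the hypothalamus by 1.75 (SE 0.25). Without replicate 1 of all 4 groups, the values were 1.37 in the hypothalamus, 1.76 in the midbrain, -0.39 for their difference, 1.94 between the IPs and 2.34 between the inputs. The IP level of Gpx3 stayed above the input in both regions, and the size of the hypothalamic change rested in part on that library. Set side by side by replicate number, log2 IP minus input was 2.23, 1.36 and 1.37 in the hypothalamus and 2.21, 1.44 and 2.06 in the midbrain.

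Markers of other cells of the tissue varied beside Gpx3. The summed 12 ependymal, tanycyte and choroid plexus markers were 6.01 to 7.62 CPM in the hypothalamus IP, 63.7 to 67.5 CPM in its input, 10.0 to 40.6 CPM in the midbrain IP and 31.9 to 969 CPM in the midbrain input. The list median was 0.87 for hypothalamus input against midbrain input, against 0.01 over all tested genes, and -0.58 between the IPs. The top of the midbrain input range came from Ttr, the thyroxine carrier of the choroid plexus, with 888 CPM in replicate 3, where Gpx3 was 21.6 CPM. The 14 endothelial and mural markers summed to 4.18 to 5.95 CPM in the hypothalamus IP and 33.0 to 40.2 CPM in its input, with Cldn5 and Slco1a4 at 0 in that IP and the other 12 detected. The 12 microglia markers summed to 4.21 to 6.32 CPM and 50.1 to 125 CPM, with C1qa at 0 in that IP and the other 11 detected. The part of these cells in the Gpx3 values was not tested.

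**Figure D1:**
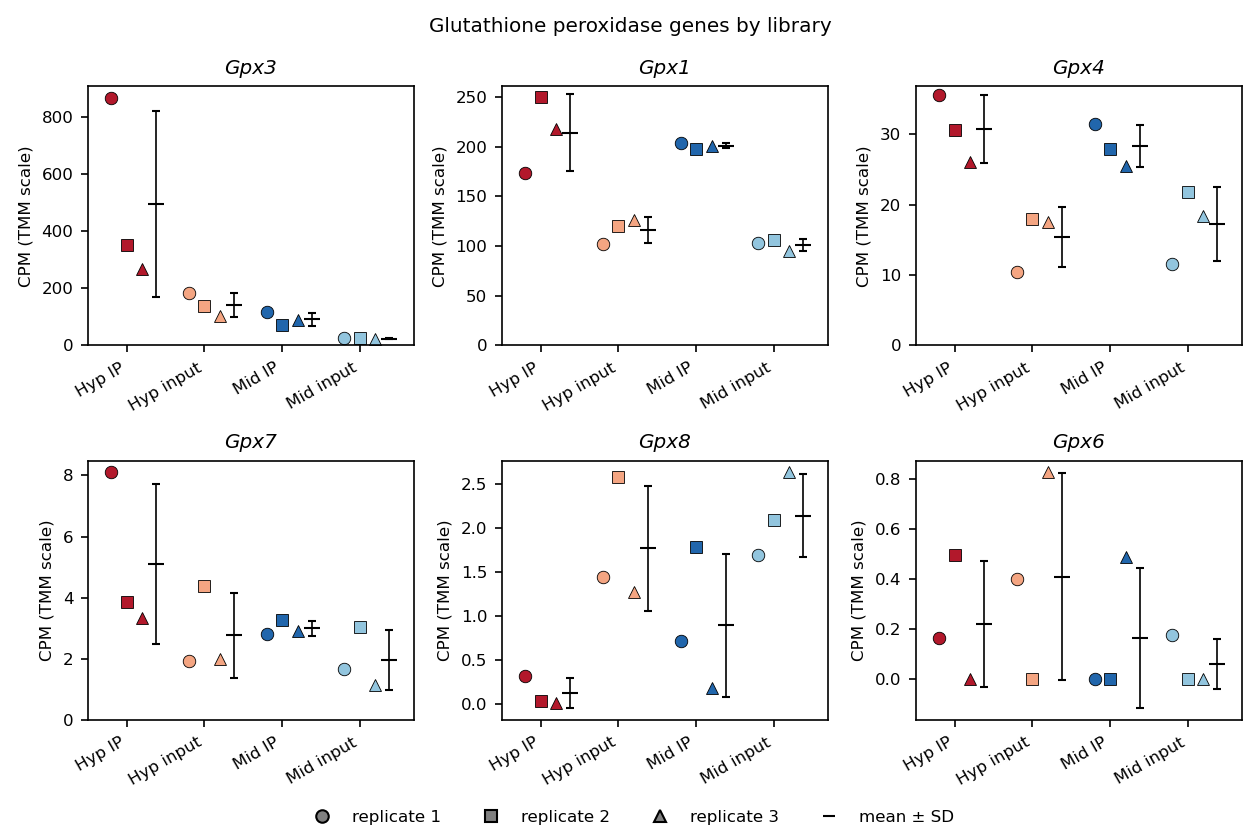
Level of the 6 tested glutathione peroxidase genes in each of the 12 libraries, in CPM on the TMM scale, by group on the horizontal axis (Hyp, hypothalamus; Mid, midbrain); symbols mark the replicate number and the bar beside them is the mean with its SD over 3 libraries. Gpx3 reached 868 CPM in replicate 1 of the hypothalamus IP and lay between 21.6 and 26.0 CPM in the midbrain input, and Gpx1 and Gpx4 were higher in every IP than in every input library of their region. IP and input did not overlap, in either direction, for 46.9% of all tested genes in the hypothalamus and 48.9% in the midbrain.

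Gpx1, the abundant cytosolic member, was higher in IP than in input in the hypothalamus and the midbrain and showed no regional difference past the threshold. Of the 5 tested genes other than Gpx3, Gpx1 and Gpx4 were called higher and Gpx8 lower in the hypothalamus IP. There, 33.8% of all tested genes were called, with 14.2% of all tested genes higher and 19.6% lower. In the midbrain only Gpx1 of the 5 was called, higher, against 33.9% of all genes called and 14.0% called higher. With so many genes called, single calls of this kind are common among all genes.

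Gpx1 had 173, 250 and 218 CPM in the hypothalamus IP and 102, 120 and 126 CPM in its input. In the midbrain it had 204, 198 and 201 CPM in the IP and 103, 106 and 95.2 CPM in the input. Every IP library lay above every input library of either region, and the midbrain IP libraries were close together. Within a region, IP and input did not overlap for 46.9% of all tested genes in the hypothalamus and 48.9% in the midbrain. The log2 fold change was 0.88 (SE 0.15) in the hypothalamus and 0.99 (SE 0.15) in the midbrain, with adjusted p of 0.000803 and 0.000402 by edgeR's quasi-likelihood test. Unlike Gpx3, Gpx1 differed little between regions, by a log2 fold change of 0.09 in the IPs (95% interval -0.23 to 0.40) and of 0.19 in the inputs (-0.12 to 0.51). Replicate 1 of the hypothalamus IP, the highest for Gpx3, was the lowest of its group for Gpx1.

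Gpx4, the phospholipid hydroperoxidase, had 35.6, 30.6 and 26.0 CPM in the hypothalamus IP and 10.5, 18.0 and 17.6 CPM in its input. It had 31.5, 27.9 and 25.5 CPM in the midbrain IP and 11.5, 21.8 and 18.4 CPM in its input. The groups did not overlap in either region, a pattern that 46.9% of all tested genes showed in the hypothalamus and 48.9% in the midbrain. The log2 fold change was 1.00 (SE 0.26, adjusted p = 0.0123, edgeR) in the hypothalamus. In the midbrain it was 0.72 (SE 0.26) with an adjusted p of 0.0525, just outside the threshold. The hypothalamic call was lost without replicate 2 of all groups (adjusted p = 0.0749) and without replicate 3 (0.0576). Replicate 1 had the lowest Gpx4 input in both regions, and the midbrain value passed the threshold in 7 of the 23 alternatives tried. Among these were limma-voom (adjusted p = 0.0346), no filter on low counts (0.0474) and the fits without replicate 1 of the hypothalamus IP (adjusted p = 0.0490) or of the hypothalamus input (0.0337) and without replicate 2 of the midbrain input (0.0364). They also included the edgeR fits with the replicate number as a block, over all libraries (adjusted p = 0.024) and by region (0.0391).

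Gpx7, of the endoplasmic reticulum, was low, with 8.12, 3.86 and 3.33 CPM in the hypothalamus IP and 1.94, 4.38 and 2.01 CPM in its input. Its midbrain values were 2.83, 3.28 and 2.90 CPM in the IP and 1.67, 3.05 and 1.16 CPM in the input. IP and input overlapped in both regions. The log2 fold changes of 0.87 (95% interval -0.18 to 1.93, adjusted p = 0.19) and 0.61 (-0.45 to 1.68, adjusted p = 0.365) did not pass in edgeR's test, and the intervals leave room for a change in either direction. Its hypothalamus IP libraries all lay above its midbrain IP libraries, by a log2 difference of 0.76 (95% interval -0.29 to 1.82) that did not pass (adjusted p = 0.453).

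Gpx8, the other endoplasmic reticulum member, went the opposite way from Gpx1 and Gpx4. It had 16, 2 and 1 counts in the hypothalamus IP libraries, or 0.322, 0.0367 and 0.0187 CPM, and 69, 144 and 63 counts in the input, or 1.45, 2.58 and 1.27 CPM. In the midbrain it had 0.723, 1.79 and 0.190 CPM in the IP and 1.69, 2.09 and 2.63 CPM in the input. Hypothalamus IP and input did not overlap, as for 46.9% of all tested genes, with 2 of the 3 IP libraries under the floor of 3 counts. The midbrain groups overlapped. The log2 fold change was -3.80 (SE 1.01, adjusted p = 0.0125, edgeR) in the hypothalamus and -1.24 (95% interval -3.18 to 0.69, adjusted p = 0.311) in the midbrain. The hypothalamic call was lost without replicate 2 of all groups (adjusted p = 0.132) and without replicate 3 (0.0516).

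For Gpx8 the difference between the regional effects was -2.56 (95% interval -5.37 to 0.26), with an adjusted p of 0.802, so the regions are not shown to differ. Between the IPs, Gpx8 was lower in the hypothalamus by a log2 fold change of -2.83 (SE 0.98), which did not pass (adjusted p = 0.141, edgeR). It passed with DESeq2 (-2.86, adjusted p = 0.0244) and without replicate 1 of the hypothalamus IP (-4.90, adjusted p = 0.0273). Summed oligodendrocyte markers were also lower in the hypothalamus IP, at 198 to 234 CPM, than in the midbrain IP, at 341 to 515 CPM. Between the IPs, list medians were -1.68 for oligodendrocyte, -1.31 for microglia and -0.94 for astrocyte markers. They were -1.08 for endothelial and mural markers and -0.58 for ependymal, tanycyte and choroid plexus markers. Between the inputs the medians were -0.98, -0.36, -0.23, -0.59 and 0.87 in that order, and Gpx8 differed by -0.27 (95% interval -2.17 to 1.63). The part of these cells in the Gpx8 values was not tested.

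The remaining genes were at the edge of detection. Gpx6 had 8, 27 and 0 counts in the hypothalamus IP, 19, 0 and 41 in its input, 0, 0 and 23 for the midbrain IP, and 9, 0 and 0 for the midbrain input. Each group held at least 1 library without a count, and the sign of its fold change depended on single libraries. Gpx2 had 1 and 2 counts in 2 of the 12 libraries, and Gpx5 had 1 and 4 counts in 2 hypothalamus IP libraries and 2 in 1 hypothalamus input library. At this depth the levels of Gpx2 and Gpx5 cannot be compared between groups.

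**Figure D2:**
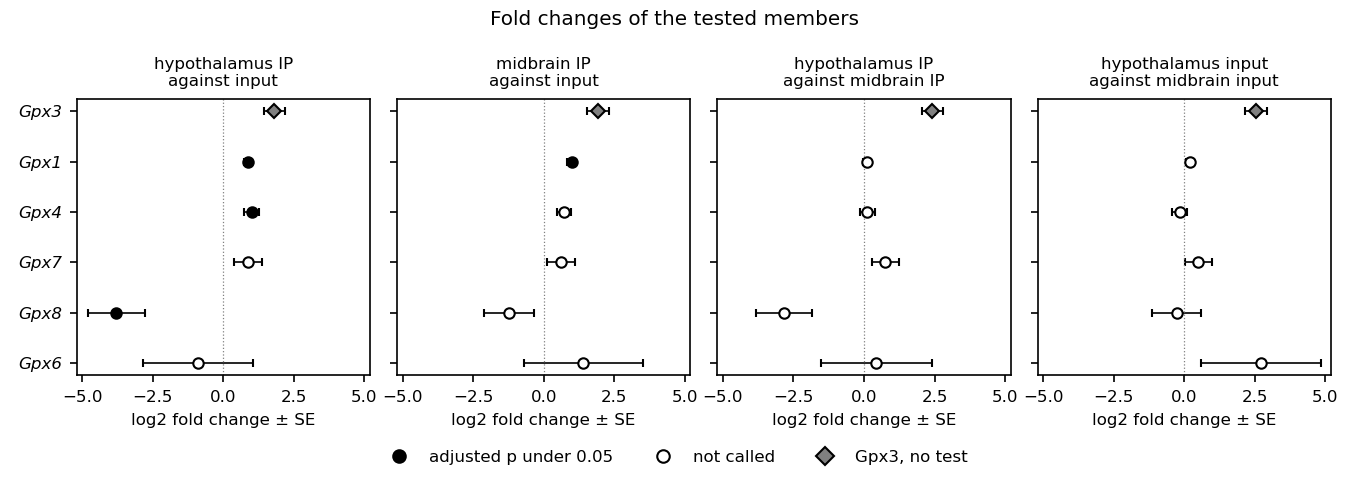
Log2 fold change with its SE for the 6 tested glutathione peroxidase genes in 4 comparisons, one per panel; filled circles passed an adjusted p of 0.05, open circles did not, and Gpx3, drawn as a diamond, was not tested. In the panels between regions Gpx3, chosen for these values, lay at 2.42 and 2.55, and Gpx1 at 0.09 and 0.19.

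Of the 5 genes other than Gpx3, none was called in the difference between the regional effects, between the IPs or between the inputs with edgeR, against 0.0772%, 4.26% and 1.61% of all tested genes. At an unadjusted p under 0.05, a threshold at which no share of all genes was taken, the counts were 0, 1 and 0, the 1 being Gpx8 between the IPs. DESeq2 called 0, 1 and 0, against 1.17%, 9.93% and 4.29% of all tested genes. Of the same 5 genes, Gpx7 had non-overlapping libraries between the regions in the IPs and none had them in the inputs. Among all genes, 18.5% had non-overlapping IP libraries and 22.1% non-overlapping input libraries between the regions.

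Levels of different genes can be set against each other only per length, here as CPM per kilobase of merged exons. In the hypothalamus IP, Gpx3 had a median of 195 CPM per kb (lowest 148, highest 479) and Gpx1 of 151 (120 to 174). In the hypothalamus input the medians were 75.6 for Gpx3 (57.3 to 102) and 83.0 for Gpx1 (70.6 to 87.8), again with overlapping libraries. In the midbrain, Gpx1 was the higher: 139 CPM per kb (138 to 141) against 49.9 (39.1 to 64.1) for Gpx3 in the IP, and 71.6 (66.0 to 73.5) against 13.8 (11.9 to 14.4) in the input.

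Gpx1 thus led the family in the midbrain, while Gpx1 and Gpx3 overlapped in the hypothalamus. The ratio of Gpx3 to Gpx1 per kb was 4.0, 1.12 and 0.977 in the hypothalamus IP libraries, 1.44, 0.91 and 0.653 in the hypothalamus input, 0.453, 0.284 and 0.358 for midbrain IP libraries, and 0.193, 0.196 and 0.18 for midbrain inputs. It was below 1 in all 6 midbrain libraries and on both sides of 1 in the hypothalamus. With the longest transcript in place of the merged exons, the median of the hypothalamus IP went from 1.12 to 0.948, so which gene leads there depends on the length used. Gpx3 made up 46.7% to 76.5% of the family's summed level per kb in the hypothalamus IP, 36.1% to 56.0% in its input, 19.8% to 28.3% in the midbrain IP and 12.9% to 14.5% in its input.

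The other members were below Gpx1 in every group, and below Gpx3 by the group medians on this measure. For Gpx4 the measure may be too low, since reads with more than 1 alignment may be missing from its counts. Its merged exons, of 1724 bases, are also longer than its longest transcript, of 995. The shares of the family carry the same uncertainty. Gpx4 had medians of 17.7, 10.2, 16.2 and 10.7 CPM per kb in hypothalamus IP, hypothalamus input, midbrain IP and midbrain input. In the midbrain input Gpx4 (6.66 to 12.6) overlapped Gpx3 (11.9 to 14.4), and with the longest transcript in place of merged exons the medians there were 18.5 for Gpx4 and 15.7 for Gpx3. Gpx7 had 2.99, 1.56, 2.25 and 1.30 in the same order. Gpx8 was below Gpx7 in the hypothalamus IP, at 0.035, and had 1.39 in the hypothalamus input, 0.689 for midbrain IP and 2.00 for midbrain input. Among the 15675 tested genes with an annotated length, Gpx3 ranked 77 in the hypothalamus IP, 279 in the hypothalamus input, 841 among midbrain IP levels and 2900 among midbrain input levels. Gpx1 stayed between ranks 209 and 346.

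**Figure D3:**
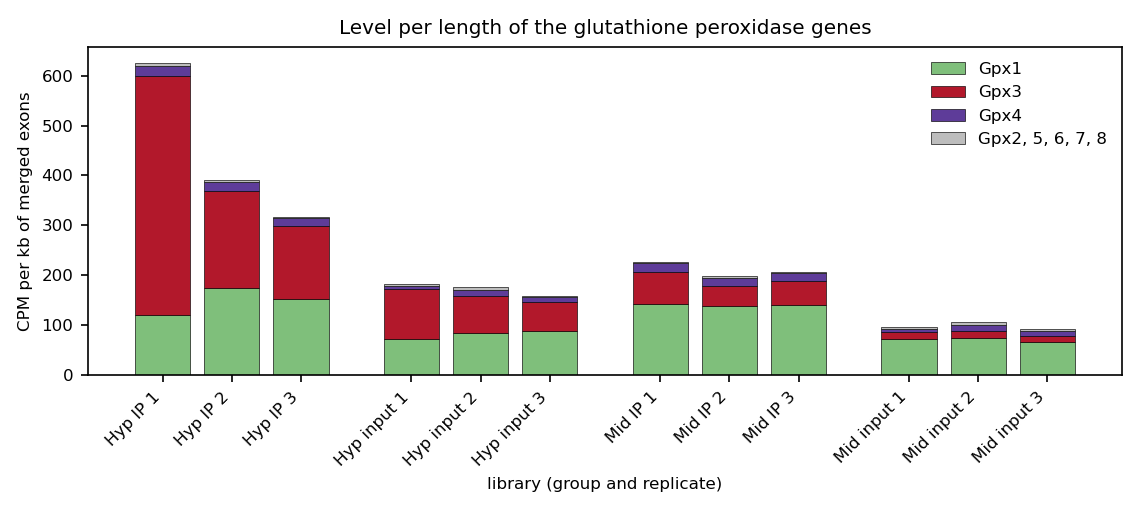
Level of the glutathione peroxidase genes per length in each of the 12 libraries, stacked, in CPM per kilobase of merged exons (Hyp, hypothalamus; Mid, midbrain). The Gpx3 part was largest in replicate 1 of the hypothalamus IP (76.5% of the sum) and smallest in the midbrain inputs (12.9% to 14.5%). There Gpx4, whose level is uncertain, held a median of 11.6%.

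The genes around the family were taken as 9 lists of the peroxide, glutathione and selenium pathways, which together held 134 distinct tested genes. Several lists share genes, so their counts are not separate observations. Txnrd1, Txnrd2 and Txnrd3 are on both the thioredoxin and the other selenoprotein lists, and Slc7a11 is on the glutathione synthesis, Nrf2 and ferroptosis lists. With edgeR, 26 of the 134 were called higher and 26 lower in the hypothalamus IP against input, and 24 higher and 26 lower in the midbrain. The background was 14.2% higher and 19.6% lower in the hypothalamus and 14.0% and 19.9% in the midbrain. With libraries scaled by their size alone, the share of calls that were higher, over all genes, went from 42.1% to 28.9% in the hypothalamus and from 41.4% to 34.3% in the midbrain. The median of all genes then moved from -0.08 to -0.25 in the hypothalamus, so small increases depend on the scaling. Markers of glia were lower in the IPs, as given above, and their part in the lowered pathway genes was not tested.

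Of 20 tested peroxiredoxins, thioredoxins and glutaredoxins, the other peroxide-reducing and thiol-reducing proteins, 9 were called higher and 2 lower in each region (45% and 10.0%), with list medians of 0.46 and 0.53. Under scaling by library size alone, 6 were higher in the hypothalamus and 9 in the midbrain, and without replicate 2 of all groups 4 in each. Txn1, which encodes thioredoxin, had 220 ± 16.5 CPM in the hypothalamus IP and 82.7 ± 9.12 in its input, and 196 ± 40.0 and 78.5 ± 5.73 CPM in the midbrain (SD, n = 3). Its log2 fold changes were 1.41 (SE 0.16, adjusted p = 6.41e-05) and 1.32 (SE 0.16, adjusted p = 9.91e-05, edgeR). Glrx5, a mitochondrial glutaredoxin of iron-sulfur cluster assembly, rose by 1.2 in the hypothalamus, and Txnrd2, the mitochondrial thioredoxin reductase, by 1.03 in the midbrain. Txnip, the inhibitor of thioredoxin, fell by 4.45 in the hypothalamus, with a log2 fold change of -4.90 in the midbrain. Prdx6, a peroxiredoxin that uses glutathione, fell by 1.05 in both regions.

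Of 17 tested selenoprotein genes outside the family, 8 rose and 2 fell in the hypothalamus IP (47.1% and 11.8%), and 7 higher and 2 lower in the midbrain (41.2% and 11.8%), with medians of 0.65 and 0.43. Without replicate 2 of all groups, 4 were higher and 2 lower in the hypothalamus. Selm, a small protein of the endoplasmic reticulum, had 217 ± 26.1 CPM in the hypothalamus IP and 75.5 ± 14.0 in its input, and 189 ± 15.3 and 78.9 ± 19.1 CPM in the midbrain. Its log2 fold changes were 1.53 (adjusted p = 0.000143) and 1.26 (adjusted p = 0.000514). Selenoprotein H, listed as 2700094K13Rik, rose by 1.37 and 1.4.

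The 2 selenoprotein genes that fell are secreted or glial products. Sepp1, the selenium carrier of plasma and a product of astrocytes in brain, had 9.31, 4.39 and 3.15 CPM in the hypothalamus IP against 243, 121 and 136 in its input, and 17.4, 13.4 and 10.8 CPM in the midbrain IP against 324, 194 and 217. Its log2 fold changes were -4.89 (SE 0.44, adjusted p = 1.53e-05) and -4.14 (SE 0.43, adjusted p = 3.68e-05, edgeR). Dio2, the thyroid hormone deiodinase of astrocytes and tanycytes, fell by 3.95 and 2.31. Gpx3 and Sepp1, both secreted selenoproteins, thus lay on opposite sides, Gpx3 with every IP library above its inputs and Sepp1 with every IP library below. Such separation, in either direction, was seen for 46.9% of all tested genes in the hypothalamus and 48.9% in the midbrain.

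Selenoprotein synthesis and selenium supply was mixed, with 3 of 13 higher and 3 lower in the hypothalamus and 3 and 2 in the midbrain. Sephs2, which makes the selenium donor, rose by 1.11 and 1.04, and Trnau1ap, a factor of the selenocysteine tRNA, by 0.90 and 0.80, calls that were lost for Trnau1ap under scaling by library size (adjusted p = 0.0617 and 0.0593) and in 3 and 5 of the 12 fits without 1 library (up to 0.0653 and 0.114). Lrp8, a receptor for selenoprotein P, fell by 1.06 in the hypothalamus.

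Of the 5 superoxide dismutase and catalase genes, 2 were higher and 2 lower in each region, and leaving out libraries the calls in total ranged from 0 to 4 and from 1 to 4. Sod1, the cytosolic dismutase that makes hydrogen peroxide from superoxide, had 895 ± 203 CPM in the hypothalamus IP and 450 ± 109 in its input, and 674 ± 144 and 381 ± 106 CPM in the midbrain. Its log2 fold changes of 0.99 (adjusted p = 0.0114) and 0.82 (adjusted p = 0.0275) passed in edgeR's test, the midbrain one not under scaling by library size (0.75, adjusted p = 0.0713) and not in 5 of the 12 fits without 1 library (adjusted p 0.056 to 0.102). Sod2, the mitochondrial dismutase, rose by 0.40 and 0.33, and neither passed under that scaling (adjusted p = 0.236 and 0.204) or in 2 and 7 of the fits without 1 library. Cat, which encodes catalase, fell by 0.73 and 0.62.

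The glutathione lists did not move with Gpx1 as lists. Of 21 tested genes of glutathione synthesis and recycling, 2 were higher and 3 lower in the hypothalamus and 1 and 4 in the midbrain, with medians of -0.07 and -0.09, and leaving out libraries 3 to 6 and 1 to 5 were called. Gsr, the reductase that regenerates glutathione for the peroxidases, rose by 0.57 in the hypothalamus (adjusted p = 0.0185), a call that scaling by library size ended (0.41, adjusted p = 0.123), as did leaving out 1 of 3 libraries (adjusted p 0.0567 to 0.0752). Chac1, which degrades glutathione, rose by 1.13 and 0.74. Slc7a11, the cystine transporter that feeds glutathione synthesis and is strong in astrocytes, had 2.22 ± 0.552 CPM in the hypothalamus IP and 44.2 ± 13.3 in its input, a fall of 4.32 on the log2 scale, and fell by 3.33 in the midbrain.

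Of 24 tested glutathione transferases, 4 were higher and 7 lower in the hypothalamus and 3 and 5 in the midbrain. Mgst3, a membrane-bound enzyme with peroxidase activity, rose by 1.64 and 1.08, and Gsto1 rose by 1.14 in the hypothalamus. Gstt3 fell by 3.92 and 5.06, Gstk1 by 3.59 in the hypothalamus and Hpgds, the prostaglandin D synthase of microglia, by 3.51 in the midbrain. The Gstm and Gsta genes have near-identical copies, and their counts are uncertain.

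Of 16 genes of the Nrf2 pathway, the main antioxidant response, 1 was higher and 3 lower in the hypothalamus and 2 and 3 in the midbrain. Nfe2l2, which encodes Nrf2 itself, had 2.26 ± 1.5 CPM in the hypothalamus IP and 26.5 ± 7.4 in its input, a fall of 3.55, and fell by 3.18 in the midbrain. Srxn1, which repairs oxidised peroxiredoxins, rose by 0.62 and 0.83, the first not past the threshold under scaling by library size (0.46, adjusted p = 0.095), and Keap1, the partner that holds Nrf2 back, by 0.80 in the midbrain. Of 16 tested genes of lipid peroxidation and ferroptosis, the process that Gpx4 opposes, none was called higher with edgeR, while 7 (43.8%) were lower in the hypothalamus and 8 in the midbrain, with medians of -1.15 and -1.11. At an unadjusted p under 0.05, 0 and 1 were higher. Without replicate 3 of all groups, 4 were lower in each region, as were 4 in the hypothalamus without replicate 2 or 3 of its IP. Fth1, the ferritin heavy chain, fell by 1.75 and 2.11, and its counts are uncertain because of its many processed copies. None of the 14 genes of oxidative folding in the endoplasmic reticulum, the setting of Gpx7 and Gpx8, was called in either region with edgeR. There, 1 and 0 passed an unadjusted p under 0.05, a threshold at which no share of all genes was taken. DESeq2 called 1 lower in the hypothalamus, where it called 38.7% of all tested genes in either direction.

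**Figure D4:**
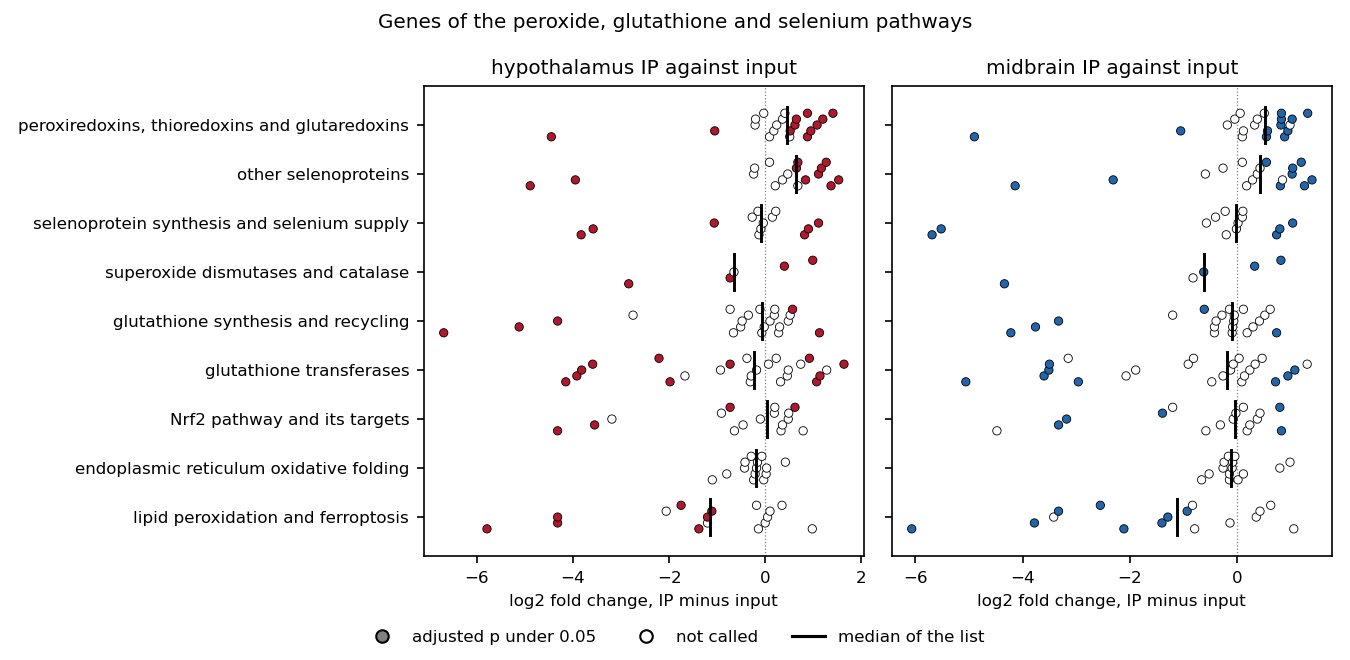
Log2 fold change of IP against input for each tested gene of 9 pathway lists, in the hypothalamus on the left and the midbrain on the right; filled points passed an adjusted p of 0.05, open points did not, and the vertical bar is the median of the list. The peroxiredoxin and thioredoxin list (medians 0.46 and 0.53) and the other selenoproteins (0.65 and 0.43) lie to the right of 0, and the ferroptosis list (-1.15 and -1.11) to the left. Some genes are drawn in several lists.

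Few pathway genes were called between regions, where few of all tested genes were called too. None of the 134 was called in the difference between the regional effects with edgeR, against 0.0772% of all tested genes. DESeq2 called 1 of the 134, against 1.17% of all tested genes. With edgeR, 7 passed an unadjusted p under 0.05, a threshold at which no share of all genes was taken. Between the inputs, 1 was higher and 1 lower, against 1.61% of all genes called in either direction. Between the IPs, 4 were higher and 1 lower in the hypothalamus, against 2.05% and 2.21% of all genes. Gstm6 had 49.9 CPM in the hypothalamus IP and 11.1 CPM in the midbrain IP on average, a log2 difference of 2.17 (adjusted p = 0.00115), and 26.3 against 8.01 CPM in the inputs, 1.71 (adjusted p = 0.00851). The counts of Gstm6 are uncertain because of near-identical copies. Its IP call was lost in 1 of the fits without a replicate number in all groups (adjusted p = 0.0664), and its input call in 2 (up to 0.299). Prdx1, an abundant peroxiredoxin, had 79.2 against 47.8 CPM in the IPs, a log2 difference of 0.73 (adjusted p = 0.00685). That call was lost in 2 of the same fits (adjusted p up to 0.281). Dio2 fell by 3.2 in the IPs and by 1.56 in the inputs, hypothalamus against midbrain, and the input call was lost in 5 of the 12 fits without 1 library (adjusted p 0.0515 to 0.0863). Gstm6, Prdx1 and Dio2 were the 3 called pathway genes that exceeded 5 CPM in either IP. The other 2, Lrp2 and Maff, were below it.

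The genes whose levels most resembled those of Gpx3 over the 12 libraries, by Pearson correlation of log2 CPM among 11079 genes, were Wdr6 (0.980), Cyb5r3 (0.977), Ldha (0.977), Gstm4 (0.968), Pnmal1 (0.968) and Gnl3l (0.966). The 12 points share 4 group means, and many genes reach high values in such a design. Wdr6 had 132, 104 and 84.1 CPM in the hypothalamus IP, 62.1, 51.9 and 47.0 in its input, 58.6, 49.5 and 44.8 CPM for the midbrain IP and 24.4, 21.2 and 16.7 for its input. Its groups came in the same order as those of Gpx3 in narrower steps, with log2 fold changes of 0.99 and 1.30 for IP against input and of 1.07 and 1.37 between the regions. Of the 6 genes, 1 was also among the 6 highest by Spearman correlation and 3 were so after each replicate number was centred.

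Within the family, Gpx7 had a Pearson correlation of 0.750 with Gpx3 and stood at rank 675, Gpx1 had 0.597 at rank 1858 and Gpx4 had 0.470 at rank 2964. Slc17a6, the gene that drives the tag, had 0.324 and stood at rank 4071. The IP levels of Slc17a6 overlapped between the regions.

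**Figure D5:**
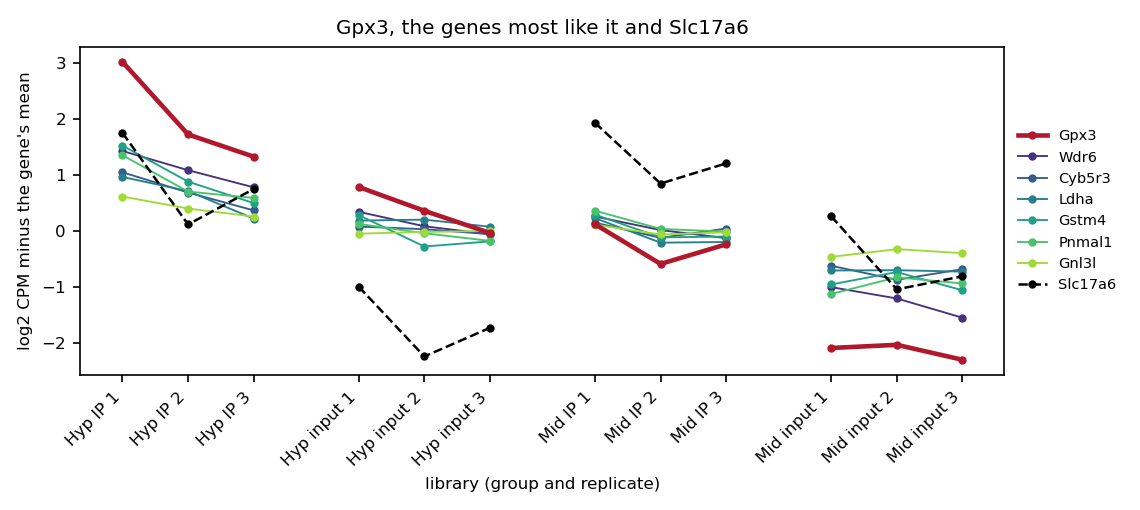
Log2 CPM minus each gene's own mean in the 12 libraries for Gpx3, the 6 genes most like it and Slc17a6; lines join the values of 1 gene within a group and carry no order. Gpx3 spans the widest range of the genes resembling it, from the hypothalamus IP at the top to the midbrain input at the bottom, and Slc17a6 (dashed) is high in both IPs.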

How the data were processed

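For each of the 12 libraries the authors deposited 1 table of unnormalised read counts by gene symbol, made with STAR 2.0.0e, the mm10 build and HTSeq, per the submitters' processing notes. The annotation, strand setting and counting mode are not given in the sources used here, so genes that overlap another gene are uncertain. Summary lines of HTSeq and a line for unknown were left out. Of these, the ambiguous line held 1737853 to 1986434 in the IP libraries and 3985265 to 16516586 in the inputs. Replicate 1 had the highest inputs, with 16126812 in the hypothalamus and 16516586 in the midbrain. The line for alignments that were not unique held 34163749 to 63357909 in the IPs and 22408447 to 29676790 in the inputs. Whether these reads bear on the IP against input change of Gpx4 was not tested. The tools were edgeR 4.0.16, limma 3.58.1 and R 4.3.3: filterByExpr left 18128 genes, and libraries were scaled by TMM. The quasi-likelihood F test of edgeR, in its robust form, came from 1 fit of 4 group means over all libraries. It was tried on simulated counts with far fewer changed genes than here. There it recovered 0 of 72 genes changed 1.5-fold, 8 of 61 changed 2-fold and 39 of 67 changed 4-fold, and it called 4 unchanged genes. With so few changed genes the adjusted threshold is stricter than here, so these rates do not give the share recovered in the comparisons above. A gene that was not called may still differ. A gene was called at a Benjamini-Hochberg adjusted p under 0.05 over all tested genes. The SE is the size of the log2 fold change divided by the square root of F. CPM values are on the TMM scale, with a prior count of 2 for values by replicate number and for correlations. The 5 comparisons were IP against input in each region, the difference of these effects, and the regions within each fraction.

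The members and gene lists were chosen with earlier results of these data known. Named were the 8 members, up to 2 pathway genes per list, comparison and direction with the largest change past the threshold, a group mean of 5 CPM or more and no overlap, the 2 markers per list highest in the inputs, and the 6 genes most like Gpx3. Other markers were named after their values were seen. Alternatives were the replicate number as a block, DESeq2 1.42.0, limma-voom, library size scaling, other filters, fits of only the groups compared and leaving out libraries. Nothing in the labels says that libraries of a group are separate animals, so the p-values measure only the spread among these libraries, which may be technical. Reads carry no molecular identifiers, so the floor of 3 counts covers counting error only. Coordinates, exon lengths and transcripts came from GENCODE M21, of the same build.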

Additional observations from a re-analysis of the deposited data

Results flagged for a closer look

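Meis2, a transcription factor on the list of GABAergic markers, was the only result singled out, because its IP over input change differed between the regions by a test of that difference. It had 3.48, 6.67 and 8.69 CPM in the hypothalamus IP against 105, 60.7 and 154 CPM in its input, and 202, 308 and 93.5 CPM in the midbrain IP against 127, 190 and 95.7 CPM in its input. The hypothalamus minus midbrain difference in log2 IP over input was -4.63 (SE 0.67, adjusted p = 0.0264 by the interaction term in edgeR, 3 libraries a group). The call was lost with limma-voom (adjusted p = 0.0863) and with no filter on low counts (0.0613), and without replicate 1, 2 or 3 of all groups (0.491, 0.412 and 0.144). It was also lost in 8 of the 12 fits without 1 library: replicate 2 of the hypothalamus IP, 1 or 3 of the hypothalamus input, 1 or 2 of the midbrain IP, or any of the midbrain inputs, with adjusted p up to 0.111. The difference lay between -4.97 and -4.18 in those 12 fits.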

How the results depend on the processing

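Over 23 alternatives, Gpx1 kept its call in both regions (adjusted p from 4.62e-06 to 0.0484 and from 3.31e-07 to 0.0226). The peroxidase genes other than Gpx3 called went from 1 to 2 in the midbrain with limma-voom and with no filter on low counts, and from 0 to 1 between the IPs with DESeq2. Leaving out libraries, they ranged from 1 to 3 in the hypothalamus, from 1 to 2 in the midbrain and from 0 to 1 between the IPs. All genes called in the regional difference went from 14 to 213 with DESeq2 and 8 with limma-voom, those between the IPs from 773 to 1800 with DESeq2 and 196 with only the groups compared, and those between the inputs from 291 to 777 with DESeq2. Leaving out libraries, these ranged from 2361 to 6289 in the hypothalamus, 2955 to 6766 in the midbrain, 0 to 33, 71 to 834 and 3 to 364. Pathway genes called went from 0 to 1 in the regional difference, from 5 to 11 between the IPs and from 2 to 4 between the inputs with DESeq2, and to 2 between the IPs with only the groups compared. Leaving out libraries, they ranged from 27 to 52 in the hypothalamus, 27 to 53 in the midbrain, 1 to 11 between the IPs and 0 to 4 between the inputs. The cause of these shifts was not tested. Of the 6 genes most like Gpx3, 1 was shared with Spearman and 3 after centring, and the Gpx3 to Gpx1 ratio in the midbrain input went from 0.193 to 0.163 with the longest transcript.

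The replicate number as a block gave 7860 calls in the hypothalamus and 7952 in the midbrain, 105 for the regional difference, 2024 between the IPs and 1097 between the inputs, and 7341, 7409 and 98 with a block by region. With it, 3, 2, 0, 0 and 0 peroxidase genes and 63, 63, 1, 22 and 10 pathway genes were called, and by region 3, 2 and 0 and 58, 60 and 1. Deviations of same-numbered libraries from their group means had correlations of 0.07 to 0.38, and 12 of 12 libraries correlated best with their own number. The labels state no pairing, but IP and input of the same region and number ran on the same lane. The added midbrain call was Gpx4 (0.75, adjusted p = 0.024, and by region 0.76, 0.0391). Under the block, Gpx6 reversed to 0.92 in the hypothalamus and to 0.25 in the regional difference.

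Signs of differences that had not passed turned when libraries were left out. Gpx6 ranged from -2.90 to 0.78 in the hypothalamus, -5.16 to 6.63 in the midbrain, -7.35 to 5.94 in the regional difference and -1.58 to 7.08 between the IPs, and Ttr from -12.76 to 1.4 in the midbrain. The regional difference of Gpx1 ranged from -0.25 to 0.03 and that of Gpx7 from -0.39 to 0.75. Between the IPs, Gpx1 ranged from -0.05 to 0.23, Gpx4 from 0 to 0.23 and Rpl10a from -0.26 to 0.11, and between the inputs Gpx4 from -0.38 to 0.05 and Gpx8 from -0.66 to 0.08. Of 52 calls of named pathway genes, 21 were lost without at least 1 replicate number in all groups, 8 without at least 1 single library and 7 with library size scaling. The counts of Gpx2, Gpx5, Gpx6 and Gpx8 limit what their values show at this depth.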

Other observations

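Other tested genes close to Gpx3 in pattern were Terf2ip (Pearson correlation 0.966), Zcchc12 (0.964) and Izumo4 (0.959), each over 12 libraries that share 4 group means. Zcchc12 had the highest Spearman correlation with Gpx3, 0.979.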
